A study of Mus musculus with 4 samples.

Results

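The mitochondrially encoded genes are the 37 features of the deposited expression table that lie on the mitochondrial chromosome, of 54078 features in all. They comprise 13 protein genes, 2 rRNA genes and 22 tRNA genes, and the choice used position alone and no measured value. RNA-sequencing was performed on kidneys of adult male mice at day 3 after bilateral ischemia-reperfusion (I/R), in which both kidneys were clamped for 30 min. WT mice were Cre-negative littermates with floxed Apela alleles, and ApelaKsp KO mice carried the same alleles with a Cre driven by the Ksp-cadherin promoter, which is active in renal tubular epithelial cells. Apela encodes the peptide ELA, a ligand of the apelin receptor. Each group had 2 libraries, each a pool of RNA from 3 mice, and every pool came from injured kidneys, with no uninjured kidney to compare. The labels give the strain as C57BL/6 x 129S4/SvJae and the study's methods as C57BL/6. The series text names adipose tissue, whereas the labels name the kidney, and the summed FPKM of 10 proximal tubule markers ran from 1434 to 2567 against 0.312 to 8.27 for 5 adipose markers. Values are FPKM (fragments scaled to gene length and to library depth), so that levels of genes of different length can be set side by side.

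Mitochondrial DNA is a small circle that is transcribed from both strands into long precursors. The precursors are cut, mostly at the tRNAs that lie between the genes, into mRNAs, 2 rRNAs and the tRNAs. The 13 proteins are core subunits of 4 of the 5 complexes of oxidative phosphorylation: complex I (the mt-Nd genes), complex III (mt-Cytb), complex IV (mt-Co1, mt-Co2 and mt-Co3) and complex V, the ATP synthase (mt-Atp6 and mt-Atp8). The rRNAs and tRNAs serve the ribosome inside the organelle. Tubular epithelium, the proximal tubule above all, is rich in mitochondria, which supply the ATP for solute transport. Pieces of mitochondrial DNA have also been copied into nuclear chromosomes during evolution, and such copies can be near identical to the gene they came from.

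The library was made from poly(A)-selected RNA with random hexamers and a second strand that carried no strand mark, so that reads from the 2 strands of mitochondrial DNA cannot be told apart. FPKM times gene length, divided by the value of 1 read in its library, gave back whole reads for 100% of the nonzero values. Reads on genes numbered from 16045724 to 16927742 per library. The number of copies of mitochondrial DNA per cell was not measured, and in bulk kidney fewer tubular cells and less mitochondrial RNA per cell cannot be told apart.

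Sequences shared with the nucleus are shown first, because reads from them fit more than 1 place. Within a stretch of mitochondrial DNA, MT:6381-11042 (4662 bases, GRCm38), each protein gene but mt-Atp8 had an annotated copy on the minus strand of chromosome 1, at chr1:24611535-24616197 (4663 bases). The 7 copies are annotated as unprocessed pseudogenes and lie in the same order as the mitochondrial genes. Sequences were taken from the GENCODE M21 transcripts, whose coordinates were identical to those of the table for all 37 genes. The pair that differed most was mt-Co1 (from its base 1054) and Gm29216 (from its base 1). They differed at 6 of 492 aligned bases, counted from the first base of mt-Co1 as T1056A, C1057T, A1059G, A1060G, C1062A and A1066T, all near the start of the copy and shown in capitals in the first 60 bases of the pair.
mt-Co1, MT:6381-6440, plus strand: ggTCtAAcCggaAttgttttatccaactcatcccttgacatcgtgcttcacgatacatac
Gm29216, chr1:24616138-24616197, minus strand: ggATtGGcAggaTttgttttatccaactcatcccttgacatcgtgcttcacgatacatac
The copy of mt-Nd3, Gm28438, differed at 1 of 345 bases, T3C counted from the first base of mt-Nd3, shown in capitals in the first 40 bases.
mt-Nd3, MT:9459-9498, plus strand: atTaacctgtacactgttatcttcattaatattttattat
Gm28438, chr1:24613080-24613119, minus strand: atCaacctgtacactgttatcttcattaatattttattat
The other 5 copies had no mismatch: Gm28661 to mt-Co2 over 681 bases, Gm10925 to mt-Atp6 over 678, Gm28437 to mt-Co3 over 783, Gm10222 to mt-Nd4l over 294 and Gm28439 to mt-Nd4 over 876. The copy of mt-Nd4 stops within the gene, and the capitals in the 60 bases around that point mark the bases it shares.
mt-Nd4, MT:11013-11072, plus strand: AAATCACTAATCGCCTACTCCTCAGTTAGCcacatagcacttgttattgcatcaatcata

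The 13 protein genes fell into separate ranges of FPKM. mt-Co1, the catalytic core of cytochrome c oxidase, was the highest of all 54078 features, with 14588 and 10972 FPKM in the WT libraries and 14326 and 15417 in the KO libraries, replicate 1 first here and throughout. mt-Cytb, the cytochrome b of complex III, ranked 3rd with 11446 and 8894 FPKM in WT and 9483 and 10971 in KO. mt-Nd1, a membrane subunit of complex I, ranked 5th with 9506 and 6312 FPKM in WT and 8638 and 9500 in KO. In each of these genes WT replicate 2 was the lowest library, and the groups overlapped.

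Next came the complex I subunits mt-Nd2, mt-Nd4, mt-Nd5 and mt-Nd6. mt-Nd2 had 4966 and 3676 FPKM in WT and 3517 and 3918 in KO. mt-Nd4 had 3808 and 3000 FPKM in WT and 2802 and 3330 in KO. mt-Nd5 had 3543 and 2575 FPKM in WT and 3230 and 3336 in KO. The groups overlapped in these too, and mt-Nd2, mt-Nd4, mt-Nd5 and mt-Nd6 ranked 9th to 12th of all features. mt-Nd6 is the only protein gene on the other strand, and had 3597 and 2431 FPKM in WT and 3149 and 3197 in KO. Its level followed that of mt-Nd5 in each library, and mt-Nd5 was the higher in 3 of the 4. The genes face each other and share 14 bases in the annotation, marked in capitals at the 3′ end of each.
mt-Nd5, MT:13526-13565, plus strand: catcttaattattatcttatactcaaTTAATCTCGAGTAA
mt-Nd6, MT:13552-13591, minus strand: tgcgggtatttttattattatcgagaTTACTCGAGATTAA
As background, the mt-Nd5 transcript runs on into the region opposite mt-Nd6. Without a strand mark, how much of the mt-Nd6 value came from either strand was not tested.

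The 6 protein genes that lie wholly within the copied stretch stood far below. mt-Co2, a copper-binding subunit of complex IV, had 260 and 244 FPKM in WT and 277 and 678 in KO. mt-Atp6, the proton-channel subunit of ATP synthase, had 477 and 305 FPKM in WT and 130 and 423 in KO. mt-Nd4l, a small subunit of complex I, had 334 and 117 FPKM in WT and 102 and 252 in KO. Within each of these genes the libraries differed by 2.78-fold to 3.67-fold between the highest and the lowest, with wide gaps between replicates of KO for mt-Co2 and mt-Atp6 and of both groups for mt-Nd4l.

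mt-Co3 of complex IV had 323 and 85.8 FPKM in WT and 187 and 83.0 in KO, the widest spread of the 13 genes (coefficient of variation 66.6% over the 4 libraries). mt-Nd3 of complex I had 31.1 and 14.0 FPKM in WT and 10.5 and 15.04 in KO. mt-Atp8, a short subunit of ATP synthase, had 15.9 and 13.7 FPKM in WT and 13.8 and 16.3 in KO, the lowest mean of the 13. mt-Atp8 rested on 47 to 54 reads per library and mt-Nd3 on 61 to 174, against at least 21706 reads per library for every gene of the upper range.

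**Figure D1:**
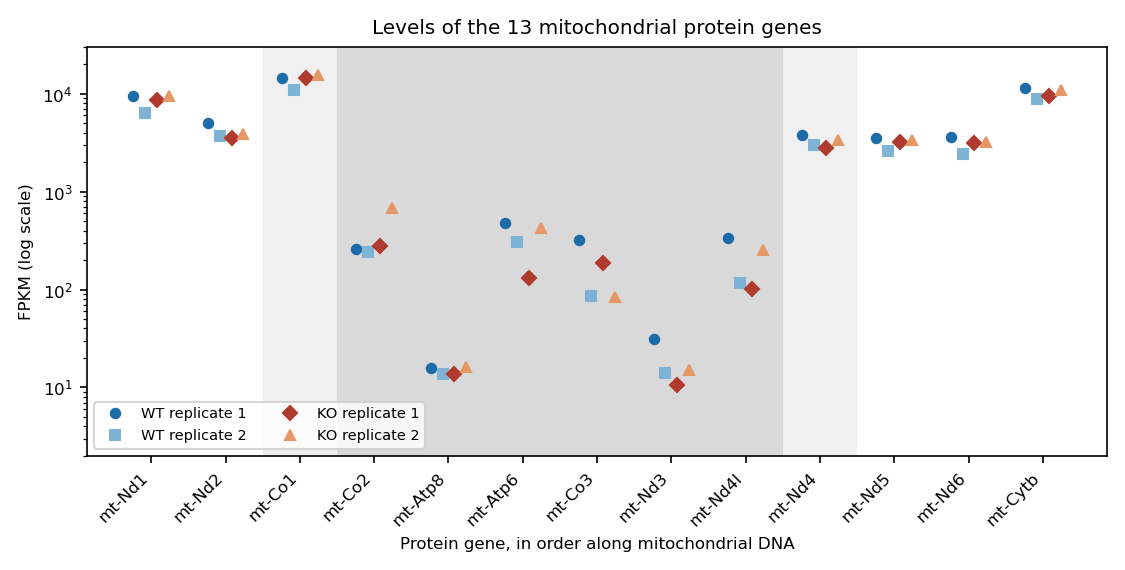
FPKM (log scale) of the 13 protein genes in their order along mitochondrial DNA, 1 point per library; dark shading marks the 6 genes wholly inside the stretch that is copied on chromosome 1, light shading the 2 genes partly inside it. Every library of the 6 dark-shaded genes lies below every library of the other 7, the nearest being mt-Co2 with up to 678 FPKM and mt-Nd6 with at least 2431.

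In the order of mean FPKM, from mt-Co1 (13825) over mt-Cytb (10198), mt-Nd1 (8489), mt-Nd2 (4019), mt-Nd4 (3235), mt-Nd5 (3171), mt-Nd6 (3094), mt-Co2 (365), mt-Atp6 (334), mt-Nd4l (201), mt-Co3 (170) and mt-Nd3 (17.7) to mt-Atp8 (14.9), neighbours overlapped in their library values with 3 exceptions. These were mt-Nd1 over mt-Nd2 (2.11-fold), mt-Nd6 over mt-Co2 (8.48-fold) and mt-Co3 over mt-Nd3 (9.60-fold). Overlap of ranges does not show equal levels, since the libraries differ together. Within each library mt-Co1 was above mt-Cytb, mt-Cytb above mt-Nd1, mt-Nd2 above mt-Nd4 and mt-Atp6 above mt-Nd4l in all 4, while the order of mt-Nd4 and mt-Nd5, of mt-Nd5 and mt-Nd6, of mt-Co2 and mt-Atp6, of mt-Nd4l and mt-Co3 and of mt-Nd3 and mt-Atp8 varied between libraries.

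The low genes were those wholly inside the copied stretch, while mt-Nd4 and mt-Co1, with 63.6% and 31.8% of their bases inside it, were among the high ones. The share of a gene's windows of 150 bases that were also present in an annotated nuclear transcript was 99.8% for mt-Co3, 99.4% for mt-Co2 and for mt-Atp6, 97.97% for mt-Nd4l and 97.0% for mt-Nd3. It was 59.2% for mt-Nd4, 23.6% for mt-Co1, and 0 for mt-Nd1, mt-Nd2, mt-Nd5, mt-Nd6, mt-Cytb and both rRNA genes. Windows of 50 bases were shared by 8.19% of mt-Nd2, 7.61% of mt-Nd5, 1.04% of mt-Rnr2 and 51.1% of mt-Co1, in part through more distant copies elsewhere. The 5 genes with no base in the stretch had coefficients of variation from 11.8% to 17.8%. Of the 6 genes wholly inside it, 5 had 46.1% to 66.6% and mt-Atp8 had 9.21%.

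mt-Atp8 was the exception within the stretch, with a low level but no window in an annotated nuclear transcript. Its first bases fall between the copies of mt-Co2 and mt-Atp6, where mitochondrial DNA and chromosome 1 both have 233 bases, and no genome sequence was used here to compare these. Its last 43 bases are also the first 43 of mt-Atp6, as the capitals in its final 60 bases show, and a read within these bases fits both genes.
mt-Atp8, MT:7910-7969, plus strand: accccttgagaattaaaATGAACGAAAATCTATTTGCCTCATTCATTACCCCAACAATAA
A read that fits 2 places equally well may be dropped, split or given to 1 of them. The counting tool is not given in the sources used here, and the part of the shared sequence in the low levels was not tested.

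The nuclear copies themselves held reads in every library. Gm28661, the copy of mt-Co2, had 472 and 338 FPKM in WT and 258 and 430 in KO, which was above mt-Co2 in both WT libraries and below it in both KO libraries. Gm28438, the copy of mt-Nd3, had 124 and 97.2 FPKM in WT and 81.3 and 104 in KO, above mt-Nd3 in every library. Gm10925, the copy of mt-Atp6, had 204 and 124 FPKM in WT and 106 and 213 in KO, below its gene in every library. The ranking of a gene and its copy was thus not the same along the stretch.

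Copies that shared at least 1 window of 150 bases with a gene were counted together with it, which took in Gm13341 for mt-Co2 but not Gm13340 for mt-Co1. Of the reads on a gene and these copies, the copies held 79.8% to 88.5% for mt-Nd3, 39.0% to 64.7% for mt-Co2, 28.9% to 44.7% for mt-Atp6, 23.9% to 45.5% for mt-Co3 and 11.9% to 26.8% for mt-Nd4l. For mt-Nd4 they held 0.550% to 1.56% and for mt-Co1 0.139% to 0.315%. These last genes also have bases outside the stretch. With the reads of the copies added, the means of the 5 copied genes rose to 742 FPKM for mt-Co2, 495 for mt-Atp6, 242 for mt-Co3, 239 for mt-Nd4l and 118 for mt-Nd3, which were still below the lowest library of mt-Nd6.

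Gm29216, the copy of mt-Co1, had 145 and 50.3 FPKM in WT and 62.5 and 97.8 in KO. Gm28439, the copy of mt-Nd4, had 95.2 and 30.9 FPKM in WT and 24.4 and 31.1 in KO, with WT replicate 1 far above the other libraries. Gm28437, the copy of mt-Co3, ran from 58.9 to 102 FPKM and Gm10222, the copy of mt-Nd4l, from 33.4 to 45.5. A further set of more distant copies on chromosome 2 was lower. Gm13340 (mt-Co1) had 6.13 to 13.7 FPKM, Gm13341 (mt-Co2) 1.82 to 7.31, and Gm13339 (mt-Nd2) 11.3 and 5.47 in WT and 0.117 and 3.86 in KO. The groups did not overlap in Gm13339, which rested on 93 and 48 reads in WT and on 1 and 32 in KO (limma adjusted p = 0.787).

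**Figure D2:**
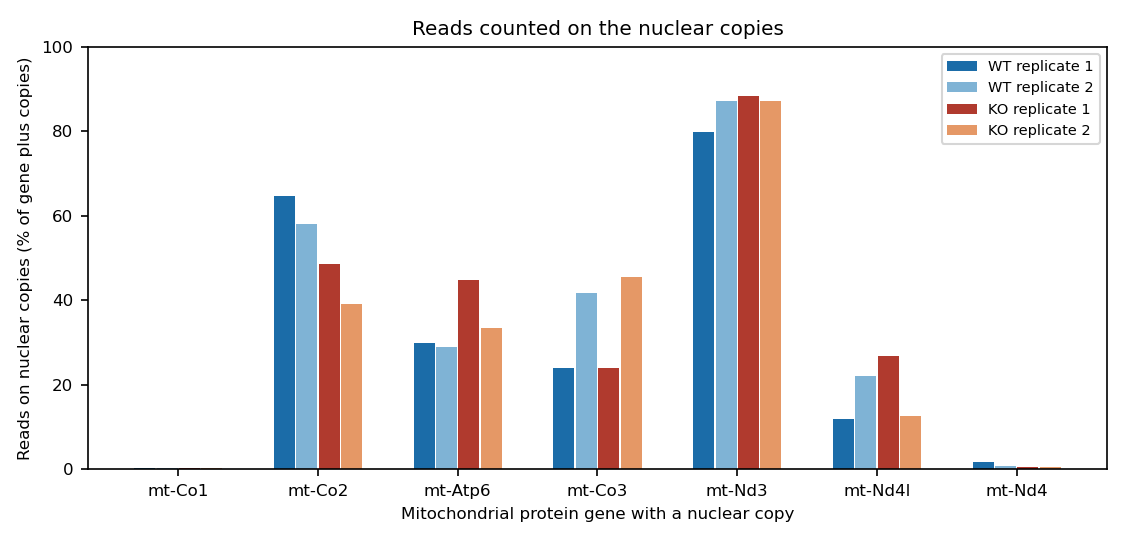
Reads counted on the nuclear copies as a percentage of the reads on the gene and its copies together, 1 bar per library, for the 7 protein genes with a copy. The bars exceed 79% for mt-Nd3 in all 4 libraries, range from 39.0% to 64.7% for mt-Co2, and stay below 1.6% for mt-Co1 and mt-Nd4.

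The comparison asked whether the loss of tubular Apela altered mitochondrially encoded RNA in the injured kidney. The targeted gene, Apela, had 5.27 and 4.57 FPKM in WT and 0.536 and 0.245 in KO, so the KO labels matched its level. None of the 13 protein genes had an adjusted p-value under 0.05 in limma on log2(FPKM + 0.5), adjusted by Benjamini-Hochberg across 15414 tested genes, and their adjusted p-values ran from 0.798 to 0.997. The background was the same, with 0% of all genes tested under that threshold. Apela, although far lower in KO, was thus not called either (smallest limma adjusted p over all genes tested 0.466). At an unadjusted p under 0.05 there were 0 of the 13, where 6.32% of all genes tested passed. Of the 13 log2 fold changes, 7 were above 0 and 6 below, with a median of 0.02 against 0.01 over all genes tested.

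Among the 5 genes with no base in the copied stretch the log2 fold changes (± standard error) were small against their errors: mt-Nd1 0.23 ± 0.53, mt-Nd5 0.12 ± 0.37, mt-Nd6 0.10 ± 0.38, mt-Cytb 0.02 ± 0.54 and mt-Nd2 -0.20 ± 0.40. mt-Co1 had 0.23 ± 0.60 (0.027 to 0.44 with a pool left out) and mt-Nd4 -0.15 ± 0.37. The groups overlapped in all of these, and the errors left room for changes of either sign. These errors come in part from limma's trend over all genes, not from each gene's own pools alone. WT replicate 1 was the highest library for all 5 genes outside the stretch and WT replicate 2 the lowest for 4 of them, so the spread within WT was wider than the distance between the groups. Without WT replicate 2 the log2 fold change of mt-Nd1 was -0.07, and without WT replicate 1 it was 0.52.

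In the copied stretch mt-Co2 was the 1 protein gene in which both KO libraries lay above both WT libraries, a pattern found in 19.7% of all genes tested. Its log2 fold change of 0.78 ± 0.46 (limma adjusted p = 0.798) rested on KO replicate 2, without which it was 0.13. With the reads of the copies added, mt-Co2 had 737 and 583 FPKM in WT and 538 and 1112 in KO, and the groups overlapped. The log2 fold changes of the others were mt-Atp6 -0.70 ± 0.62, mt-Nd3 -0.71 ± 0.42, mt-Co3 -0.42 ± 0.75, mt-Nd4l -0.31 ± 0.67 and mt-Atp8 0.02 ± 0.15. For mt-Nd3 it ran from -0.15 to -1.28, depending on whether WT replicate 1 or WT replicate 2 was left out. The sign for mt-Atp6 turned without KO replicate 1 (0.15), that for mt-Co3 without WT replicate 1 (0.54) or KO replicate 2 (0.17), and that for mt-Nd4l without WT replicate 1 (0.45) or KO replicate 1 (0.35).

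**Figure D3:**
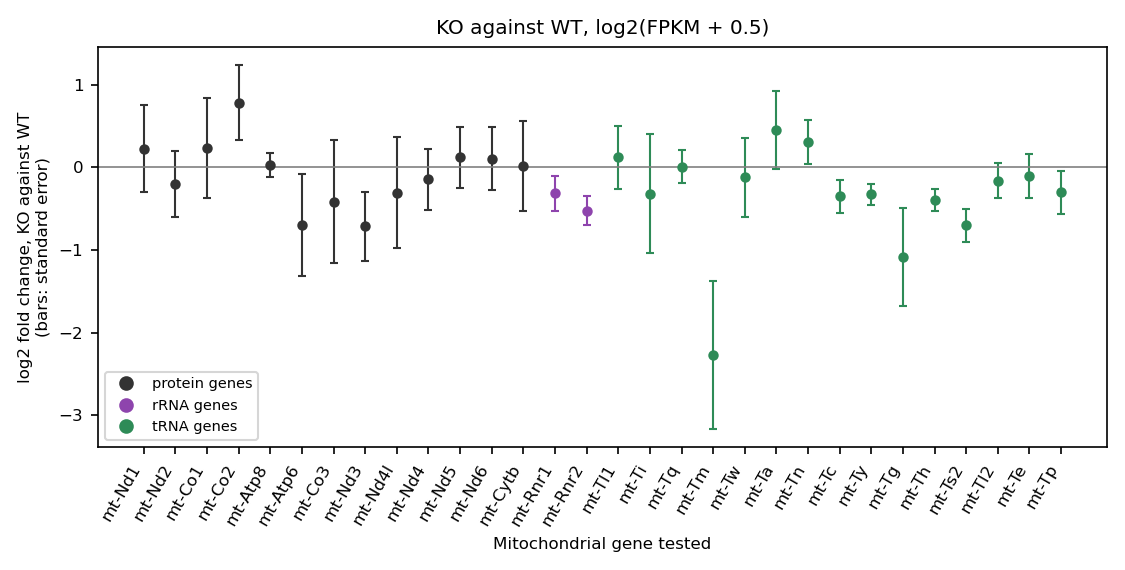
log2 fold change of KO against WT on log2(FPKM + 0.5), with the standard error from limma, for the 30 mitochondrial genes tested; black marks protein genes, purple rRNA genes and green tRNA genes. The bars of most protein genes cross 0, while both rRNA genes and 11 of the 15 tRNA genes lie below 0, mt-Tm lowest at -2.27.

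All 37 genes together took 6.45% and 5.20% of the reads on genes in WT and 5.67% and 6.15% in KO. Both KO libraries lay between the WT libraries, and an exact two-sided permutation test gave p = 1.00. The 95% Wilson interval of each share was at most 0.012 percentage points to either side, which covers counting error only.

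Within the mitochondrial reads, the make-up of each library was compared as the share of each gene in the reads on the 13 protein genes, which takes out what scales them all together. The share of mt-Nd2 was 8.01% and 8.02% in WT and 6.43% and 6.48% in KO. That of mt-Nd4 was 8.16% and 8.69% in WT and 6.80% and 7.31% in KO. That of mt-Co1 was 35.0% and 35.6% in WT and 39.0% and 38.0% in KO. In each of these the groups were farther apart than the replicates, with mt-Nd2 at 0.805 and mt-Nd4 at 0.838 times its WT share and mt-Co1 at 1.09 times.

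The share of mt-Nd1 was 14.1% and 12.7% in WT and 14.6% and 14.5% in KO, and that of mt-Cytb was 20.4% and 21.4% in WT and 19.1% and 19.998% in KO. The groups did not overlap in these genes either, but were closer than in mt-Nd2. mt-Nd3 was lower in KO, with 0.0168% and 0.0103% against 0.00643% and 0.00834%, but its log2 ratio of -0.88 became -0.43 with the reads of the copy added and -0.48 without WT replicate 1. The log2 ratio of the mt-Nd1 share, 0.11, was 0.039 without WT replicate 2, and that of the mt-Cytb share, -0.094, was -0.058 without it. The shares of mt-Nd5 (9.69% to 10.4%) and mt-Nd6 (2.64% to 2.90%) overlapped between the groups, as did those of mt-Co2, mt-Atp8, mt-Atp6, mt-Co3 and mt-Nd4l.

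With 2 libraries against 2 the exact two-sided permutation test cannot give less than p = 0.333, which was reached by 7 of the 15 quantities compared (6 shares and the rRNA ratio), and all 7 had an adjusted p of 0.714 over the 15. For comparison, among all genes tested both KO libraries were above both WT libraries in 19.7% and below in 18.1%, so a count of 7 of 15 is not far from the background. Shares of 1 total are tied to each other, so that a rise of mt-Co1 lowers the rest. Among the 5 genes outside the stretch alone the share of mt-Nd2 was 14.5% and 14.7% in WT and 12.1% and 12.2% in KO, which left the groups apart (exact permutation p = 0.333), as did that of mt-Nd1 (25.5% and 23.2% against 27.3% and 27.2%). Against this total mt-Cytb overlapped (36.7% and 39.1% against 35.8% and 37.5%), as did mt-Nd6, and mt-Nd5 did not (18.12% and 18.07% against 19.45% and 18.19%), so the separation of mt-Cytb and the overlap of mt-Nd5 depended on the total used. The Wilson interval of a protein gene's share was at most 0.10 percentage points to either side, at mt-Co1.

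**Figure D4:**
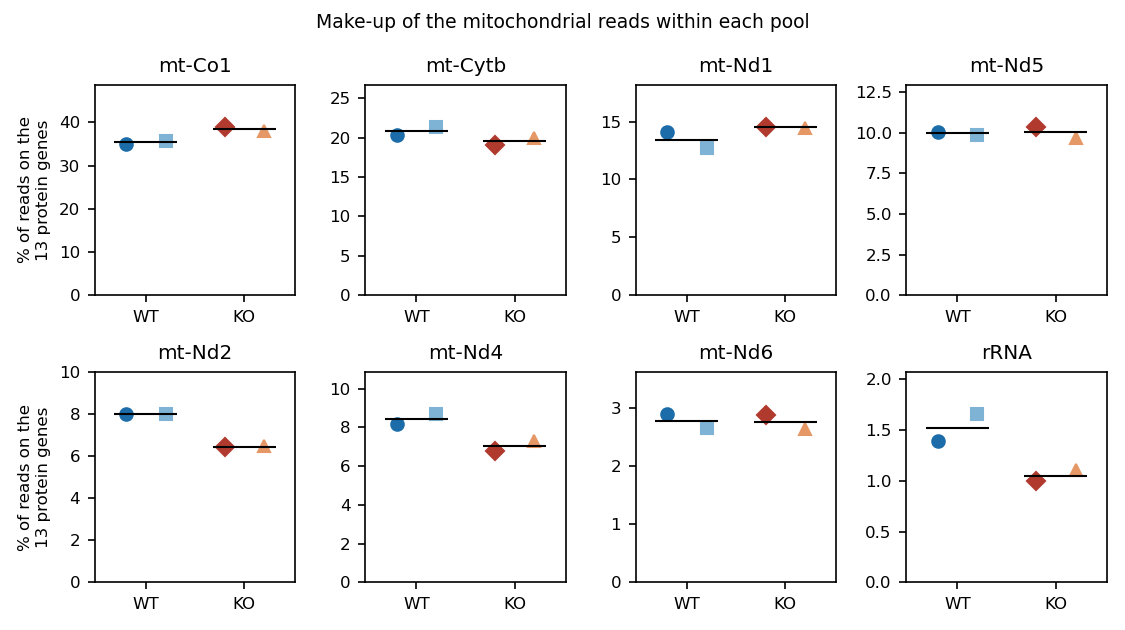
Share of 7 protein genes in the reads on the 13 protein genes, and reads on both rRNA genes relative to the same total, in percent, 1 point per library with the group mean as a line; the vertical axes start at 0. mt-Nd2, mt-Nd4 and rRNA lie lower in both KO libraries and mt-Co1 higher, while mt-Nd5 and mt-Nd6 overlap between the groups.

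mt-Rnr1 encodes the 12S rRNA of the small subunit of the mitochondrial ribosome and mt-Rnr2 the 16S rRNA of the large subunit. mt-Rnr1 had 452 and 368 FPKM in WT and 295 and 363 in KO. mt-Rnr2 had 293 and 276 FPKM in WT and 179 and 217 in KO. In both genes both KO libraries lay below both WT libraries, a pattern found in 18.1% of all genes tested, though for mt-Rnr1 only by 368 against 363. The log2 fold changes were -0.53 ± 0.18 for mt-Rnr2 (limma adjusted p = 0.785) and -0.32 ± 0.22 for mt-Rnr1 (adjusted p = 0.824). Neither passed the threshold. In the main fit mt-Rnr2 alone had an unadjusted p under 0.05, which it lost without the filter on low genes, with the replicate block and with any pool left out. Under quantile normalization mt-Rnr1 had one as well (limma unadjusted p = 0.041, log2 fold change -0.42).

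Relative to the reads on the protein genes, rRNA reads came to 1.39% and 1.66% in WT and 0.994% and 1.10% in KO (0.688 times, exact permutation p = 0.333, the smallest possible). The ratio of mt-Rnr1 to mt-Rnr2 reads was 0.932 and 0.805 in WT and 0.996 and 1.01 in KO. These levels stand for what remained after poly(A) selection. Mitochondrial rRNAs carry short tails at most, so the level of rRNA in the kidney and its capture by poly(A) selection cannot be told apart. With 23324 and 25258 reads over the 4 libraries, counting error is small beside the spread of the pools.

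As background, mature tRNAs are folded, modified and lack the long tails that poly(A) selection binds, and the library kept cDNA fragments longer than any tRNA gene. Of the 22 tRNA genes, 6 were listed at 0 in every library (mt-Tf, mt-Ts1, mt-Td, mt-Tk, mt-Tr and mt-Tt) and mt-Tv had 1 read in 1 library. Of the 5 tRNA genes in the copied stretch, 4 were among those at 0 and the last, mt-Tg, had 0 to 2 reads per library. Outside it, 2 of 17 were at 0.

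The 2 highest tRNA genes were mt-Te (glutamic acid) and mt-Tp (proline), both on the minus strand on either side of mt-Cytb, and their sequences are given whole.
mt-Te, MT:14071-14139, minus strand: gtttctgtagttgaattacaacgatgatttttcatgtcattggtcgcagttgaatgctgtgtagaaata
mt-Tp, MT:15356-15422, minus strand: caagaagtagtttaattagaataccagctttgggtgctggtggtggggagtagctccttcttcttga
mt-Te had 626 and 596 FPKM in WT and 685 and 469 in KO. mt-Tp had 745 and 537 FPKM in WT and 566 and 463 in KO. The groups overlapped in both, with log2 fold changes of -0.11 ± 0.26 and -0.30 ± 0.26, and that of mt-Tp ran from -0.54 to -0.069 with a WT pool left out, smallest without replicate 1. Both were above mt-Rnr1 in every library. mt-Te lies directly beside mt-Nd6, and mt-Tt, between mt-Cytb and mt-Tp on the plus strand, was listed at 0.

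Next in level, mt-Tc (cysteine) had 177 and 139 FPKM in WT and 137 and 111 in KO. mt-Tl2 (leucine) had 132 and 93.3 FPKM in WT and 94.3 and 104 in KO. mt-Th (histidine) had 56.6 and 65.9 FPKM in WT and 45.5 and 46.9 in KO. Of these, mt-Tc and mt-Th were lower in both KO libraries than in both WT libraries, while mt-Tl2 overlapped.

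mt-Ty (tyrosine) had 53.9 and 56.4 FPKM in WT and 46.4 and 41.4 in KO. mt-Ts2 (serine) had 48.5 and 69.0 FPKM in WT and 36.5 and 34.4 in KO. mt-Tl1 (leucine) had 30.7 and 48.1 FPKM in WT and 57.4 and 30.4 in KO. The groups were apart in mt-Ty and mt-Ts2 and crossed in mt-Tl1. mt-Tm (methionine) was the 5th tRNA gene with both KO libraries below WT, but on 5 and 8 reads in WT and 3 and 0 in KO. Its log2 fold change of -2.27 ± 0.89 was -0.96 without KO replicate 2, -3.59 without KO replicate 1 and -3.43 at a pseudocount of 0.1.

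The other tRNA genes with a mean of at least 1 FPKM were low and their groups overlapped. mt-Tn (asparagine) had 21.1 to 35.6 FPKM, mt-Tw (tryptophan) 8.92 to 19.95, mt-Ta (alanine) 2.53 to 7.21 and mt-Ti (isoleucine) 0.842 to 5.41. mt-Tq (glutamine) had 1 read in each library and stood below that mean, as did mt-Tg and mt-Tv.

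**Figure D5:**
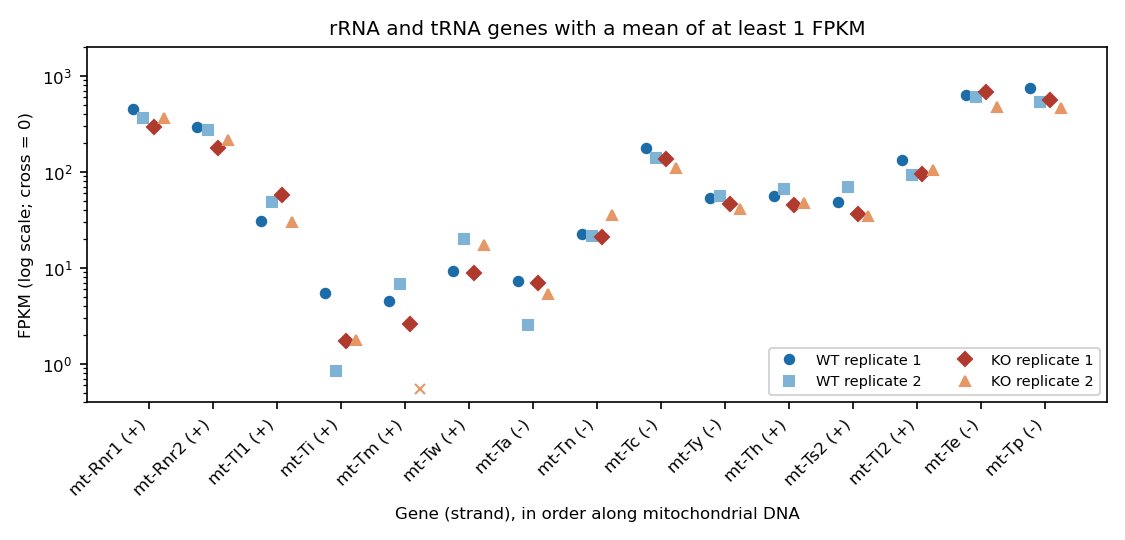
FPKM (log scale) of the 2 rRNA genes and the 13 tRNA genes with a mean of at least 1 FPKM, in their order along mitochondrial DNA with the strand in parentheses, 1 point per library; a cross marks a value of 0. mt-Te and mt-Tp are highest, between 463 and 745 FPKM, and both KO libraries lie below both WT libraries for mt-Rnr1, mt-Rnr2, mt-Tm, mt-Tc, mt-Ty, mt-Th and mt-Ts2.

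Of the 22 tRNA genes, 15 passed the filter of a mean of 0.5 FPKM and were tested. None had an adjusted p-value under 0.05 in limma (0.771 to 0.997), and 2 of the 15 had an unadjusted p under 0.05, against 6.32% of all genes tested: mt-Ts2 with a log2 fold change of -0.70 ± 0.20 (adjusted p = 0.771) and mt-Th with -0.40 ± 0.13 (adjusted p = 0.785). Of the 15, 11 had a log2 fold change below 0, against 48.6% of all genes tested, and the median was -0.30. Both KO libraries lay below both WT libraries in 5 of the 15, against 18.1% of all genes tested. mt-Ts2 and mt-Th both lost the unadjusted call with voom weights on the reads, and without either KO pool, and mt-Th also with the replicate block and without WT replicate 2. Without WT replicate 2, mt-Ts2 had -0.45. Other tRNA genes gained the unadjusted call under alternatives that kept all pools. These were mt-Ty with quantile, total-read and nuclear-read scaling and without the filter on low genes, and mt-Tc with quantile normalization. mt-Tm gained it with total-read and nuclear-read scaling and at a pseudocount of 1. mt-Ts2 and mt-Th are neighbours on the plus strand between mt-Nd4 and mt-Nd5, and such neighbours come from 1 precursor and are not independent. Each held 33 to 76 reads per library. All tRNA reads together came to 0.203% and 0.236% of the protein-gene reads in WT and 0.205% and 0.148% in KO, and these overlapped (exact permutation p = 0.667).

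Nuclear genes that serve mitochondrial RNA were described by lists. The lists of mtDNA maintenance and replication (12 genes), mitochondrial transcription (9), RNA processing (7), RNA stability, polyadenylation and decay (11 tested of 13), tRNA and rRNA modification (15) and translation factors (10) had no gene with an unadjusted or adjusted p under 0.05 in limma, against 6.32% and 0% of all genes tested. Their median log2 fold changes ran from -0.07 to 0.04. Tfam, which packages mitochondrial DNA and starts its transcription, had 10.2 and 9.18 FPKM in WT and 10.5 and 9.38 in KO. Polrmt, the mitochondrial RNA polymerase, had 12.2 and 11.9 FPKM in WT and 11.6 and 11.1 in KO. Lrpprc, which stabilises mitochondrial mRNAs, had 16.6 and 15.8 FPKM in WT and 14.6 and 15.5 in KO. The groups overlapped in Tfam, and both KO libraries lay narrowly below WT in Polrmt and Lrpprc.

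Mtpap, the mitochondrial poly(A) polymerase, had 6.90 and 8.24 FPKM in WT and 6.02 and 6.85 in KO, a log2 fold change of -0.22 ± 0.14 (limma adjusted p = 0.816). Slirp, the partner of Lrpprc, stood at 0.0375 to 0.120 FPKM and Pde12, a mitochondrial deadenylase, was listed at 0 in every library, as was Ndufs3 of complex I. These are genes that most cells use, so no more is read from such values. By the rule of the largest change among genes with a mean of at least 5 FPKM and no overlap of the pools, the genes named from these lists were Polrmt (-0.09 ± 0.10), Supv3l1, a mitochondrial RNA helicase (-0.27 ± 0.12), Grsf1, which binds RNA in mitochondrial RNA granules (0.27 ± 0.15), Gtpbp3, a tRNA-modifying enzyme (-0.28 ± 0.15), Tufm, the mitochondrial elongation factor Tu (-0.23 ± 0.12), Hsd17b10 (0.19 ± 0.14) and Trmt10c (-0.13 ± 0.12), both subunits of the RNase P that cuts tRNAs from the precursor, and Top1mt, the mitochondrial topoisomerase (0.06 ± 0.10). Their adjusted p-values were 0.797 to 0.931.

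In complex I, 32 of 35 tested nuclear genes had a log2 fold change above 0, in complex III 8 of 9, in complex IV 11 of 12 and in complex V 13 of 15, with medians of 0.11 to 0.13. All 4 genes of complex II, which has no mitochondrially encoded subunit, were above 0 as well, with a median of 0.10. Below 0 lay 48.6% of all genes tested, but the genes of a complex are not independent of each other. The summed FPKM of the complex I genes was 3007 and 2267 in WT and 2862 and 2957 in KO, and WT replicate 2 was likewise the lowest for the sums of complexes II, III, IV and V. Both KO sums of complex I lay between the WT sums.

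No gene of these lists passed the adjusted threshold in limma, and 1 had an unadjusted p under 0.05, against 6.32% of all genes tested. This was Uqcrc1, a core subunit of complex III, with 6.41 and 13.5 FPKM in WT and 2.44 and 3.11 in KO (-1.59 ± 0.36, adjusted p = 0.708). In each of complexes I, III, IV and V, 1 gene had both KO libraries above both WT libraries, against 19.7% of all genes tested. These were Cyc1, the cytochrome c1 of complex III (0.31 ± 0.18), Ndufs7 of complex I (0.28 ± 0.16), Cox5a of complex IV (0.22 ± 0.15) and Atp5g2 of complex V (0.14 ± 0.13).

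WT replicate 2, the library that was lowest for 7 of the 13 protein genes, also stood apart in some cell type markers. KO replicate 1 was the lowest for 5 of the 13. Of 5 tubular injury markers, Havcr1 (393 FPKM), Vcam1 (31.05) and Sox9 (10.7) were highest in WT replicate 2. Lcn2 (1.21 ± 0.21) and Krt20 (0.73 ± 0.11) had both KO libraries above both WT libraries, against 19.7% of all genes tested (limma adjusted p = 0.613 and 0.545). Vcam1 (-1.91 ± 0.70) had both KO libraries below both WT libraries, against 18.1% of all genes tested (limma adjusted p = 0.785). Havcr1 (-0.83 ± 0.52) and Sox9 (-0.20 ± 0.24) had log2 fold changes below 0, and their groups overlapped. The summed FPKM of 6 macrophage markers was 104 and 244 in WT and 116 and 96.5 in KO, and 5 of the 6 were highest in WT replicate 2, with C1qa and C1qb making up most of the sum and Itgam highest in KO replicate 2. The sum of 4 fibroblast markers was 71.0 and 143 in WT and 91.6 and 94.6 in KO, mostly through Col1a1 (44.1 and 101 in WT, 54.8 and 59.5 in KO). Pdgfrb and Pdgfra in WT replicate 2 (27.6 and 8.14) were close to their highest KO values (26.5 and 7.85). Dcn had both KO libraries below both WT libraries (4.18 and 6.24 in WT, 3.39 and 2.25 in KO, limma adjusted p = 0.785). The sum of the 10 proximal tubule markers was 2567 and 1949 in WT and 1434 and 2253 in KO, lowest in KO replicate 1. This was mostly through Slc34a1 (898 and 689 in WT, 365 and 609 in KO) and Miox (601 and 477 in WT, 211 and 463 in KO). Cubn, Slc22a6, Slc22a8 and Slc13a3 were lowest in WT replicate 2 instead. Of the 10 markers, 5 had both KO libraries below WT and 2 above, against 18.1% and 19.7% of all genes tested. The thick ascending limb and distal tubule sum (1346 and 953 in WT, 1378 and 1109 in KO) was lowest in WT replicate 2. So was the collecting duct sum (342.4 and 218.5 in WT, 371.5 and 292.3 in KO). Umod made up most of the first sum (788 FPKM in WT replicate 2) and Aqp2 most of the second (159). Of the members of both lists, Slc12a3, Cldn16, Pvalb and Slc4a1 were lowest in KO replicate 1 and the others in WT replicate 2. The endothelial sum was highest in KO replicate 2 (43.0 and 53.4 in WT, 49.2 and 63.0 in KO). The part of these markers in the mitochondrial values was not tested.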

How the data were processed

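RNA-sequencing values were taken from 1 table in which the authors deposited FPKM per gene for 4 kidney libraries. The submitters' processing notes name HISAT2 2.0.5 and the builds mm10 and GRCm38.p6, and the counting tool and the handling of reads that fit several places are not given in the sources used here. The deposited FPKM already carried a median-of-ratios scaling. Whole reads were recovered within a tolerance of 0.01 reads.

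KO and WT were compared by limma 3.58.1 (R 4.3.3; lmFit, eBayes with trend, two-sided) on log2(FPKM + 0.5) for 15414 genes with a mean of at least 0.5 FPKM, with Benjamini-Hochberg adjustment. This scale understates changes of low genes. Shares and ratios were compared by an exact permutation test over libraries. Windows of 50, 100 and 150 bases of each mitochondrial gene were searched in the annotated GENCODE M21 transcripts, not in a genome. Gene lists are described by counts. This set of genes and the lists were chosen with earlier results of these data known, while membership in the set was by position alone. Named were all members with their values, tRNA genes from a mean of 1 FPKM, and from each nuclear list the gene changed most in each direction (mean of at least 5 FPKM, pools not overlapping), with Tfam, Polrmt, Lrpprc, Slirp and Mtpap. Pde12 and Ndufs3 were named after their values were seen. The marker sums and the single marker genes were picked after their values were seen. Replicates differed by more than sampling noise (chi-square per gene 34.6 in WT and 26.9 in KO). The p-values measure the spread between pools, which limma draws toward a trend with level over all genes. For mt-Co1, the highest gene, the unadjusted limma p was 0.717 in the main fit and 0.281 without the trend. Without the filter on low genes it was 0.966. Alternatives were other pseudocounts and filters, quantile, total-read and nuclear-read scaling, no trend, a replicate block, voom weights, protein-coding genes only, copies added, FPKM in place of reads, and each pool left out. The fit was tested on simulated data, and no result of that test is used here. Python 3.11.15 with numpy 2.4.6, pandas 2.3.3, scipy 1.17.1 and matplotlib 3.10.9 served for the rest.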

Additional observations from a re-analysis of the deposited data

How the results depend on the processing

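The number of mitochondrial genes with an adjusted p-value under 0.05 in limma was 0 under every alternative that kept all 4 pools. It was also 0 among all genes tested, so the count is not particular to the mitochondrial genes. Over these alternatives the adjusted p-values of the mitochondrial genes were 0.711 to 1.00. In fits with a pool left out, a lone pool was assumed to vary like the others. At an unadjusted p under 0.05, limma called 687 to 1720 of all genes. The replicate numbers shared no deviation (correlation -0.0017), and a limma fit with the replicate block called 0 genes, with 932 at an unadjusted p under 0.05. The sign of 7 of the 30 tested genes turned or fell to 0 with the scaling, and the cause was not tested. Among them were mt-Nd1 and mt-Co1 (both 0.23 in the main fit) and mt-Nd2 (-0.20). Quantile normalization gave log2 fold changes of -0.033 for mt-Nd1, 0 for mt-Nd2, mt-Co1 and mt-Nd6, -0.0078 for mt-Atp8, -0.13 for mt-Cytb, -0.033 for the median of the 13 protein genes and 0 for the median of the 5 genes outside the stretch, a median chosen after seeing the data. Values of 0 arise where genes hold the same ranks in both groups. Scaling to total reads gave -0.038 for mt-Tq, -0.046 for mt-Atp8, and -0.057 for mt-Cytb and for the median of the 13. Scaling to reads on nuclear genes gave -0.037 for mt-Tq, -0.045 for mt-Atp8, and -0.055 for mt-Cytb and for the median of the 13. With FPKM in place of reads the log2 ratio of the mitochondrial share was -0.024 and that of the mt-Nd6 share 0.0029. With the reads of the copies added, no share changed its direction.

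Leaving out each pool in turn turned the sign of 18 of the 30 tested genes. The ranges were -0.33 to 0.57 for mt-Tl1, -0.069 to 0.52 for mt-Nd1, -1.39 to 0.75 for mt-Ti, -0.023 to 0.039 for mt-Tq, -0.42 to 0.014 for mt-Nd2, -0.65 to 0.41 for mt-Tw, -0.23 to 1.12 for mt-Ta, -0.064 to 0.68 for mt-Tn and -0.094 to 0.14 for mt-Atp8. They were -1.55 to 0.15 for mt-Atp6, -1.37 to 0.54 for mt-Co3, -1.06 to 0.45 for mt-Nd4l, -0.32 to 0.026 for mt-Nd4, -0.42 to 0.086 for mt-Tl2, -0.11 to 0.35 for mt-Nd5, -0.18 to 0.38 for mt-Nd6, -0.38 to 0.17 for mt-Te and -0.17 to 0.20 for mt-Cytb. The median of the 13 protein genes ran from -0.18 to 0.35, that of the 5 genes outside the stretch from -0.17 to 0.35 and the log2 ratio of the mitochondrial share from -0.12 to 0.19. Among the shares of the 13, the log2 ratio ran from -0.19 to 0.027 for mt-Atp8, -1.37 to 0.36 for mt-Co3, -1.10 to 0.23 for mt-Nd4l, -0.039 to 0.060 for mt-Nd5 and -0.071 to 0.058 for mt-Nd6. The directions of both rRNA genes (-0.67 to -0.39 for mt-Rnr2, -0.47 to -0.17 for mt-Rnr1), of the rRNA ratio (-0.66 to -0.41) and of the shares of mt-Nd2 (-0.32 to -0.31), mt-Nd4 (-0.31 to -0.20) and mt-Co1 (0.10 to 0.14) held with each pool left out.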
